A study of Mus musculus with 60 samples.

Results

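Brown adipose tissue of male mice kept at 4 degrees was compared with brown adipose tissue of PBS controls. The comparison rests on 6 of the 60 RNA-seq libraries of the series, 3 from the cold and 3 controls, chosen by their titles alone. The cold mice were 8 weeks old and given PBS. Their titles say WT, while their labels give the strain B6.Foxp3.DTR and the genotype DTR-, and no toxin is named for them. The PBS controls were 8-week-old DTR- males of the same strain, given diphtheria toxin (DT) and PBS. DTR- mice lack the transgene that places the diphtheria toxin receptor in Foxp3-expressing cells. No control matched to the cold libraries is labelled, and the labels do not give the housing temperature of the controls, the length of the cold exposure or the time of day of sampling. Temperature, toxin and experiment therefore cannot be told apart in any difference between these groups.

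A further 10 control libraries of brown fat, also from 8-week-old males, served to show how far controls of the same study differ among themselves. They are 3 DTR- libraries of the groups named D3 and 4 of those named D4, both given DT (the D3 titles also say PBS), and 3 libraries of wild-type C57BL/6J mice given an isotype antibody and no toxin. Another 3 DTR- libraries, given DT and CL, are set beside the cold libraries where the adrenergic response is described. CL is read as CL-316243, which activates the beta-3 adrenergic receptor. Whether replicates are separate animals is not labelled. The p-values thus set a difference between groups only against the spread of these libraries, and that spread may be technical.

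Brown fat burns fuel to make heat. Noradrenaline released by sympathetic nerves in the cold acts on beta-adrenergic receptors, cAMP rises, lipid droplets are broken down, and UCP1 lets protons return across the inner mitochondrial membrane without ATP synthesis. Heat is also made by cycles that spend ATP to no net end, such as the phosphorylation and dephosphorylation of creatine. Brown adipocytes draw in fatty acids, glucose and branched-chain amino acids as fuel, and they secrete factors that act on the nerves and vessels around them.

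Totals were 7695982 to 9055959 counts per library at 4 degrees and 4719310 to 8847409 in the PBS controls. Levels are given as CPM, counts scaled to the TMM-corrected size of each library, and a ± after a log2 fold change is its standard error from a fit on 3 cold and 3 PBS libraries. The defining markers of brown adipocytes were present in all 6 libraries, and their summed level was 25118 to 26493 CPM at 4 degrees, against 15411 to 18722 CPM in the PBS controls. Of these 7 markers 3 were called higher and 2 lower, and Ucp1 alone held 15032 to 16295 CPM at 4 degrees, against 6823 to 9043 CPM. Summed markers of T and NK cells were 5.26 to 10.6 CPM in the cold libraries, and 12.3, 6.53 and 116 CPM in PBS replicates 1, 2 and 3. PBS replicate 3 stood apart, for a reason the labels do not give, and whether its label is right was not tested. Its genes of the interferon gamma response summed to 16391 CPM, against 3402 and 2831 CPM in the other PBS controls and 1699 to 2454 CPM in the cold libraries. As CPM of total counts, without TMM, the same list summed to 16258 in PBS replicate 3, above every brown fat library of DTR+ mice given DT in the groups D3, D4 and CL, where it ran from 4372 to 11904. The counts of called genes over a list are therefore also given without this library where they differ.

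**Figure D1:**
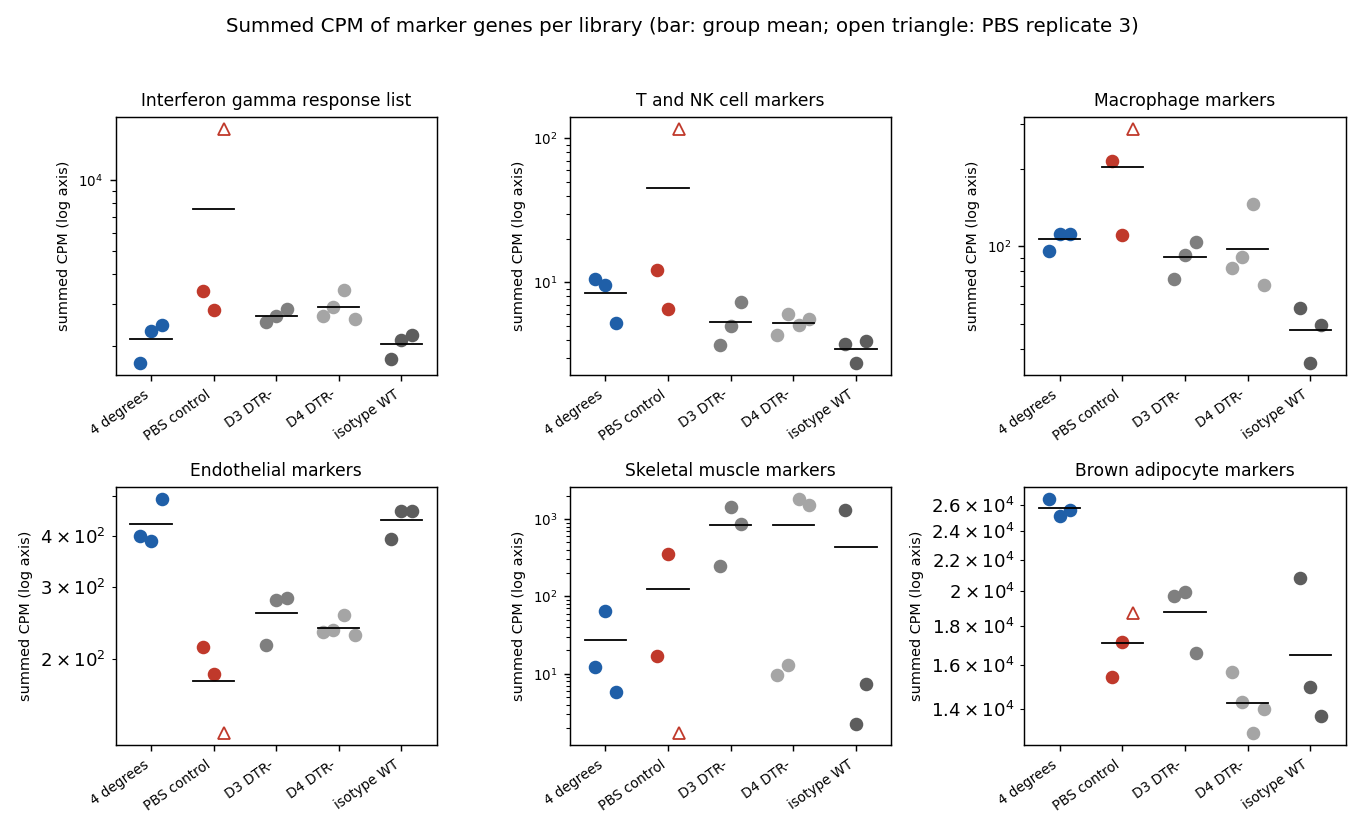
Summed CPM (log axis) of 1 response list and 5 sets of cell type markers in each brown fat library, with cold libraries first, PBS controls next and the 10 other control libraries after them; bars are group means and the open triangle is PBS replicate 3. PBS replicate 3 is highest for the interferon gamma list (16391 CPM) and the T and NK cell markers (116 CPM) and lowest for the endothelial markers (132 CPM).

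Among 12329 genes tested, 599 were higher and 469 lower at 4 degrees (adjusted p under 0.05), which is 8.66% of the genes tested, 4.86% higher and 3.80% lower. Counts over each gene list below are to be read beside these shares. The median change of all genes tested was 0. The higher genes had a median log2 fold change of 1.16, and 373 of them changed by more than 2-fold. The lower genes had a median of -1.04, and 248 changed by more than 2-fold. Leaving out PBS replicate 3 gave 594 higher and 452 lower genes among 12786 tested (8.18% called, 4.65% higher and 3.54% lower), and 847 genes were called both ways, which is 79.3% of those called with the library and 81.0% of those called without it. The number called moved by more than 1.5 times when other libraries were left out. It was 610, 640 and 499 without cold replicates 1, 2 and 3, and 621 without PBS replicate 1. Named genes that lost their call when 1 library was left out are given with those libraries, as cold 1 to 3 and PBS 1 to 3.

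**Figure D2:**
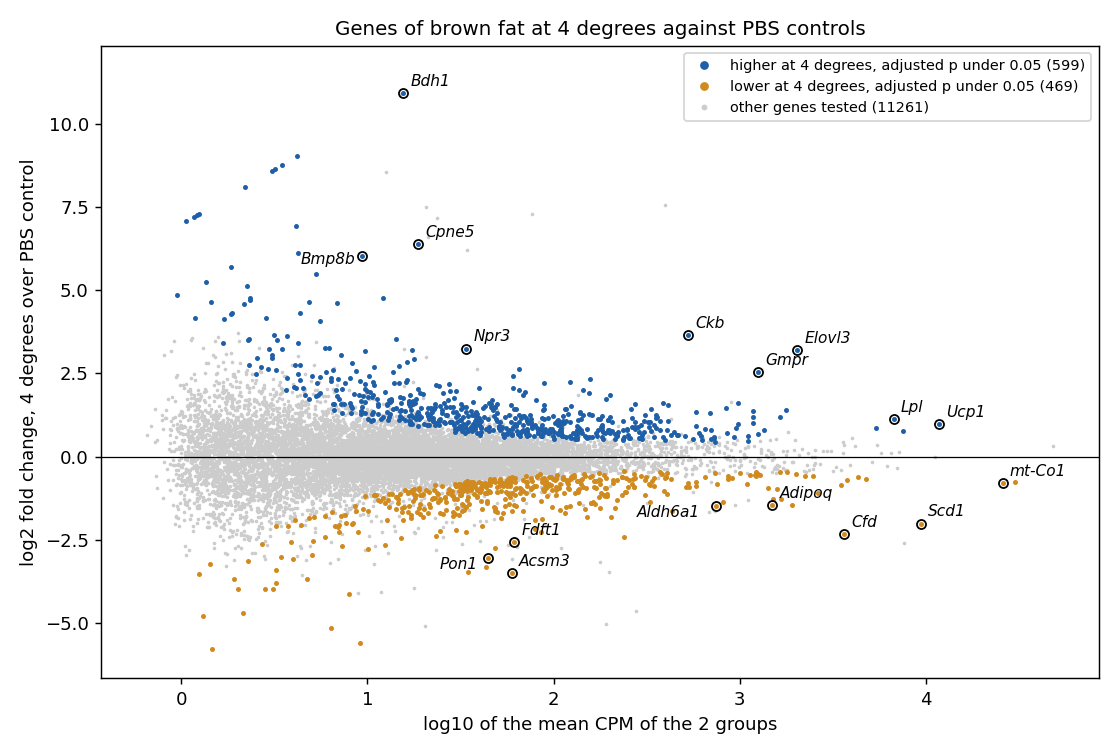
The log2 fold change at 4 degrees over PBS controls (vertical axis) of each of 12329 genes against the log10 of its mean CPM over both groups (horizontal axis), with genes at an adjusted p under 0.05 coloured. Ckb, Bmp8b, Bdh1 and Elovl3 lie among the higher genes, and Cfd, Adipoq, Scd1 and Aldh6a1 among the lower ones.

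Creatine kinase B was far more abundant at 4 degrees than in any control. Ckb (chromosome 12, 111669361 to 111672338, mm10), whose enzyme moves phosphate between ATP and creatine and drives the futile creatine cycle of thermogenic fat, stood at 706, 1272 and 972 CPM in the cold libraries, against 77.8, 96.5 and 62.6 CPM in the PBS controls. The groups did not overlap, and the lowest cold library exceeded the highest PBS control several-fold. The log2 fold change was 3.65 ± 0.24 (adjusted p = 8.1e-05). In the 10 other control libraries Ckb ran from 38.4 to 153 CPM, so the cold libraries were above all 13 controls. Called genes that lay above all 13 control libraries numbered 396, which is 3.21% of the genes tested, and called genes that lay below all 13 numbered 308, which is 2.50%. Called or not, 6.65% of genes lay above all 13 and 5.75% below, while 15.2% had every cold library above every PBS control and 15% every one below. Alpl, a phosphatase that splits phosphocreatine in fat cells, was at 52.7, 62.8 and 88.5 CPM in the cold and 23.6, 30.5 and 20.7 CPM in the controls (1.46 ± 0.24, adjusted p = 0.0043). Atp2a2, the calcium pump SERCA2 of calcium cycling, was at 174, 232 and 225 CPM, against 105, 152 and 127 CPM (0.72 ± 0.17, adjusted p = 0.025). Both also lay above all 13 controls. Over the list of creatine and calcium cycles, 3 of 8 members tested rose and 0 fell, with a median log2 fold change of -0.19 beside 0 for all genes, or -0.75 over 10 tested without PBS replicate 3. With all libraries the other 5 members did not pass the test, though 1 member lay below all 13 controls. Against D3, D4 and isotype controls, 3, 3 and 3 members were higher and 3, 2 and 1 lower of 10, 9 and 7. Their medians were -0.98, -0.83 and 0.21. Of all genes 11.1, 15.5 and 11.9% were higher and 11.4, 15.8 and 11.9% lower in those comparisons. Slc6a8, the creatine transporter, was at 6.59, 9.08 and 6.82 CPM in cold libraries and 12.8, 14.7 and 7.41 CPM in PBS controls (adjusted p = 0.32). Gatm, the first enzyme of creatine synthesis, was at 2.16, 2.93 and 2.51 CPM, against 5.22, 5.69 and 6.95 CPM (adjusted p = 0.13). With 1 library left out, calls were lost for Atp2a2 without cold 2, cold 3 or PBS 1 (adjusted p up to 0.11).

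Among secreted factors, 5 of 16 tested rose and 0 fell (median log2 fold change 0.32), and without PBS replicate 3 another 1 fell. Bmp8b (chromosome 4, 123105165 to 123132099), a bone morphogenetic protein made by brown adipocytes that raises their response to noradrenaline, was at 11.6, 30.3 and 13.4 CPM at 4 degrees, against 0.168, 0.843 and 0 CPM in the PBS controls. It was close to undetected in the controls, with 5 counts over the 3 PBS libraries and 525 over the 3 cold libraries. Its log2 fold change was 6.01 ± 0.78 (adjusted p = 0.0016), and the 10 other controls held 0 to 4.29 CPM. The near copy Bmp8a was at 0, 0 and 0 CPM in the cold libraries and 0.505, 0 and 0 CPM in the PBS controls, so the counts of Bmp8b were not mirrored under its neighbour. Edn1, the vasoconstrictor endothelin 1, rose by 4.18 ± 0.82 on the log2 scale from low levels (4.66 to 6.64 CPM in the cold, 0 to 0.570 CPM in the controls). Fgf9, a fibroblast growth factor, rose by 3.65 ± 0.78 (4.55 to 6.83 CPM, against 0 to 0.842 CPM). S100b, a calcium-binding protein that in mouse brown fat promotes sympathetic innervation, was at 143, 178 and 102 CPM, against 71.2, 70.1 and 63.1 CPM (1.06 ± 0.19, adjusted p = 0.0079). These 3 genes too were above all 13 controls, but Edn1 was not called with D3 or isotype controls (adjusted p of 0.076 and 0.085). Cxcl14, a chemokine released by brown fat, was at 19.6, 11.8 and 29.9 CPM in the cold and 6.90, 8.43 and 3.42 CPM in the PBS controls (1.74 ± 0.43, adjusted p = 0.028, and 0.056 without PBS replicate 3). Its lowest cold library lay within the range of the 10 other controls (11.6 to 19.2 CPM). Calls were lost for Edn1 without cold 2 (adjusted p = 0.053), Fgf9 without cold 2 or cold 3 (adjusted p up to 0.069) and Cxcl14 without any 1 library but cold 2 and PBS 2 (adjusted p up to 0.14).

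The adipokines went the other way: 0 of 9 rose and 3 fell, with a median of -0.68. Cfd (chromosome 10, 79890853 to 79892655), adipsin or complement factor D, was at 1086, 1366 and 1172 CPM in the cold libraries, against 5466, 4882 and 7862 CPM in the PBS controls. Every cold library lay well below every PBS control, and Cfd fell by 2.32 ± 0.19 in log2 units (adjusted p = 0.00018). Against other controls the gap was narrower. The D3 libraries held 4349.6, 3495 and 3871 CPM, the D4 libraries 4614, 3918, 2908 and 4267 CPM and the isotype libraries 2017, 2067 and 1356 CPM, so that 1 isotype library reached the cold range. Adipoq (chromosome 16, 23146536 to 23158028), which encodes adiponectin, was at 764, 789 and 843 CPM in the cold, against 2102, 2032 and 2462 CPM, and fell by 1.45 ± 0.13 (adjusted p = 0.00028). It lay below all 13 controls, whose other 10 libraries held 1059.6 to 2096 CPM. Nampt, a secreted enzyme of NAD synthesis, fell by 0.74 ± 0.18 (adjusted p = 0.025). The test was no longer passed by Nampt without cold 1, cold 3 or PBS 2 (adjusted p up to 0.12).

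The 250 bases before the transcription start of Ckb, Bmp8b, Ucp1, Cfd and Adipoq are shown because these genes carry the description of the cold libraries, with sequences from RefSeq (GRCm38.p6, the same assembly as mm10) read 5′ to 3′ on the gene's own strand. Capitals mark matches on either strand to TGACG (a cAMP response element half-site, which also lies within the full element TGACGTCA), AGGTCA (a nuclear receptor half-site), CACGTG (an E-box) or CCAAT (the CCAAT box).
Ckb (chr12:111672339-111672588, minus strand): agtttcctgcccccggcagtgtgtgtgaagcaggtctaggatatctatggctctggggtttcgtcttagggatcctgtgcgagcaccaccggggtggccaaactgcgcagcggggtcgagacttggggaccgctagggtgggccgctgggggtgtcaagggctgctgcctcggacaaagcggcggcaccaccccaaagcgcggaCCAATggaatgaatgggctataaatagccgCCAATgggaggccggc
Bmp8b (chr4:123104911-123105160, plus strand): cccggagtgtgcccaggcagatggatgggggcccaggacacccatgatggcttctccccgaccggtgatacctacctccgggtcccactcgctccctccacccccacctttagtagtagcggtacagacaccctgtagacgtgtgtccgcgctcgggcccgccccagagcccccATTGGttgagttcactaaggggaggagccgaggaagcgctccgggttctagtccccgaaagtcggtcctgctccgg
Ucp1 (chr8:83290098-83290347, plus strand): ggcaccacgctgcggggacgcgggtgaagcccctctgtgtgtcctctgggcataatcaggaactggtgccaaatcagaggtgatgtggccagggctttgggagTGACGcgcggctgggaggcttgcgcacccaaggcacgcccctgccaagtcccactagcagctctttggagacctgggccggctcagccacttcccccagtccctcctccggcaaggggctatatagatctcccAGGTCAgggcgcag
Cfd (chr10:79890603-79890852, plus strand): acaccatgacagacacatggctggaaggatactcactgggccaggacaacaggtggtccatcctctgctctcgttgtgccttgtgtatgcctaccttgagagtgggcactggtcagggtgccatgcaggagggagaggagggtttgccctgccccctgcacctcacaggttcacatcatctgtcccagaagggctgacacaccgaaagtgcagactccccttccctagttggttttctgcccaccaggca
Adipoq (chr16:23146286-23146535, plus strand): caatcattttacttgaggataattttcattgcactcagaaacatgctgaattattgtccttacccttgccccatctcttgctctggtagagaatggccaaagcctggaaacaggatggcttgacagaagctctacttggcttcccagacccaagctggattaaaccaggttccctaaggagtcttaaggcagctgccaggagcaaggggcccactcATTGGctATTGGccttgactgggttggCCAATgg

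Of these 5 windows, only that of Ucp1 holds TGACG, and also 1 AGGTCA. The windows of Ckb, Bmp8b and Adipoq hold CCAAT alone, 2, 1 and 3 times, and that of Cfd holds none of the letters searched. Among promoters of 250 bases, TGACG was found for 25.7% of the 447 higher genes with a RefSeq promoter, 21.8% of the 377 lower genes and 27.6% of the 9483 genes tested. For the full TGACGTCA the shares were 2.68, 2.12 and 2.74%. For AGGTCA they were 13.2, 9.55 and 10.4%, for CACGTG 9.40, 6.90 and 8.53%, and for CCAAT 36.9, 39.8 and 36.6%. Over all 32851 promoters of the RefSeq table, the shares were 17.8% for TGACG, 1.55% for TGACGTCA, 14.0% for AGGTCA, 6.02% for CACGTG and 33.8% for CCAAT. A match describes the letters of the window and is not a binding site.

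Ucp1 itself rose less than Ckb. Ucp1 (chromosome 8, 83290352 to 83298452) was at 16295, 15459 and 15032 CPM in the cold libraries, against 6823, 8056 and 9043 CPM in the PBS controls, with no overlap. The log2 fold change was 0.98 ± 0.14 (adjusted p = 0.002), and the cold libraries lay above all 13 controls, though 1 isotype library reached 12165 CPM. Over the thermogenic list, 5 of 25 genes rose and 2 fell, with a median of 0.32. Elovl3 (chromosome 19, 46131897 to 46135694), an elongase of very long chain fatty acids that is a classical cold-induced transcript of brown fat, was at 3579.8, 3813 and 3643 CPM, against 170.3, 447 and 581 CPM. The 3 cold libraries were close to each other and far above the controls (3.21 ± 0.44, adjusted p = 0.0085). Ppargc1a, the coactivator PGC-1 alpha, was at 137, 105 and 191 CPM, against 57.6, 62.8 and 81.5 CPM (1.11 ± 0.22, adjusted p = 0.013), and overlapped with the 10 other controls (34.6 to 156 CPM). Elovl6, an elongase of palmitate, rose by 0.85 ± 0.19, and Acot11, a thioesterase of brown fat, rose by 1.17 ± 0.27 (adjusted p = 0.024, and 0.086 without PBS replicate 3). Elovl6 and Acot11 changed sign with the D3 or isotype libraries as controls. The genes that fell were Cidea, a lipid droplet protein, by 0.62 ± 0.14, and Cox8b, the subunit of cytochrome c oxidase that marks brown adipocytes, by 0.52 ± 0.14 (adjusted p = 0.038, and 0.077 without PBS replicate 3). Dio2, the deiodinase that makes active thyroid hormone in brown fat, was at 138, 264 and 258 CPM in the cold and 40.2, 83.2 and 159 CPM in the PBS controls (adjusted p = 0.24). Without PBS replicate 3, whose level lay within the cold range, Dio2 passed the test (log2 fold change 1.84, adjusted p = 0.036). Cox7a1, another cytochrome c oxidase subunit, did not pass the test (adjusted p = 0.53). Calls ended for Ppargc1a without cold 3, PBS 1 or PBS 2 (adjusted p up to 0.06), Elovl6 without cold 1, cold 3 or PBS 1 (adjusted p up to 0.094), Acot11 without any 1 library but cold 2 and PBS 2 (adjusted p up to 0.093) and Cidea without any 1 library but cold 3 and PBS 3 (adjusted p up to 0.079). With 1 library left out, calls were lost for Cox8b without any 1 of the 6 libraries (adjusted p up to 0.15).

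**Figure D3:**
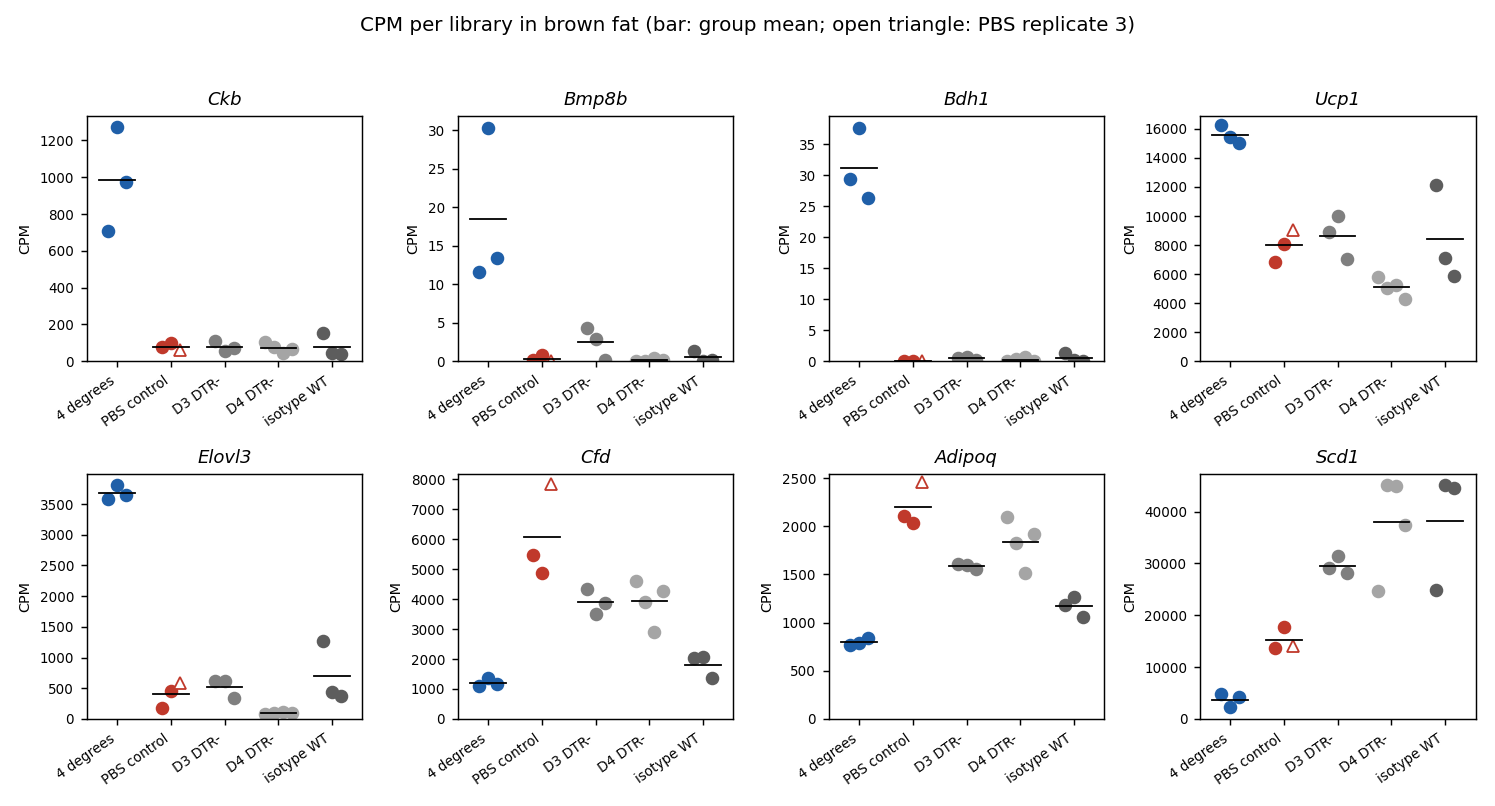
CPM of 8 genes in each brown fat library (linear axes from 0), with the cold libraries at the left, then PBS controls and the D3, D4 and isotype controls; bars are group means and the open triangle is PBS replicate 3. The cold libraries of Ckb (706 to 1272 CPM) and Elovl3 (3579.8 to 3813 CPM) lie above every control library, and those of Adipoq and Scd1 below every one.

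Genes of adrenergic signalling were mixed, with 4 higher and 2 lower of 26 tested (median 0.14), and 6 higher and 2 lower without PBS replicate 3. Of all genes tested 4.86% were higher and 3.80% lower. Adcy3, an adenylyl cyclase, was at 407, 415 and 637 CPM in the cold, against 137, 199 and 205 CPM (1.44 ± 0.21, adjusted p = 0.0028). Gnas, which encodes the stimulatory G protein alpha subunit, rose by 1.07 ± 0.24, and Prkaca, a catalytic subunit of protein kinase A, by 0.54 ± 0.13. Adcy10, the soluble adenylyl cyclase, rose by 2.69 ± 0.60. Pde3b, a phosphodiesterase that breaks down cAMP, fell by 0.83 ± 0.17, and with isotype controls its sign turned. Of these 5 genes only Prkaca lay outside the range of all 13 controls, with 241 to 275 CPM in the cold and 137 to 169 CPM in the 10 other controls. No immediate-early gene of 15 tested was called, but 3 were called higher when PBS replicate 3 was left out. Those were Fos (log2 fold change 3.59, adjusted p = 0.0046), Egr1 (2.12, 0.0098) and Jun (1.31, 0.0083). Fos was at 13.98, 16.8 and 6.46 CPM in the cold and 1.18, 0.843 and 10.4 CPM in the PBS controls, where the third library again lay within the cold range, and Egr1 and Jun were lower at 4 degrees with the D3, D4 or isotype controls. Calls were lost for Gnas without cold 1, cold 3 or PBS 2 (adjusted p up to 0.087), Prkaca without any 1 library but PBS 3 (adjusted p up to 0.12), Adcy10 without cold 1, PBS 1 or PBS 2 (adjusted p up to 0.087) and Pde3b without cold 2 (adjusted p = 0.053).

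Genes that bring fatty acids into the cell and those of lipid storage split. Lpl (chromosome 8, 68880491 to 68907448), the lipase that frees fatty acids from circulating lipoproteins, was at 7417, 9964 and 10264 CPM in the cold libraries, against 4469, 4932 and 3355 CPM in the PBS controls (1.12 ± 0.17, adjusted p = 0.0034). Gpihbp1, the endothelial anchor of that lipase, was at 262, 215 and 258 CPM, against 127, 113 and 96.9 CPM (1.13 ± 0.15). Fabp3, a fatty acid carrier of oxidative cells, was at 1438, 2053 and 1419.7 CPM, against 633, 735 and 775 CPM (1.20 ± 0.16). None of the 3 genes overlapped with any of the 13 controls. The other called members of the uptake list fell: Apoe by 1.29 ± 0.14, the transporter Slc27a1 by 1.18 ± 0.14, Apoc1 by 0.90 ± 0.16, and Angptl4, an inhibitor of lipoprotein lipase, by 1.10 ± 0.25. That gave 3 higher and 4 lower of 19 tested. Cd36, the main fatty acid receptor, was at 2819.5 to 3168 CPM in the cold and 2635 to 2664 CPM in the controls, and was not called (adjusted p = 0.39). The test was no longer passed by Angptl4 without any 1 library but PBS 2 and PBS 3 (adjusted p up to 0.087).

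Of 15 genes of lipolysis and the lipid droplet, 2 rose and 4 fell. Pnpla2, which encodes the triglyceride lipase ATGL, was at 916, 1068 and 1239.7 CPM in the cold, against 2245, 2350.1 and 1721 CPM, and fell by 0.96 ± 0.16 (adjusted p = 0.0046). The droplet coat genes moved apart. Plin2 rose by 1.18 ± 0.18, while Plin1 fell by 0.61 ± 0.15 and Plin4 by 1.40 ± 0.30 (adjusted p = 0.022, and 0.062 without PBS replicate 3). Of 23 genes of lipogenesis, 4 rose and 2 fell (median 0.12), and 3 rose without PBS replicate 3. With other controls most called genes of the list were lower. Against D3, D4 and isotype controls, 1, 2 and 1 were higher and 12, 6 and 15 lower, with medians of -1.20, -0.61 and -1.07. In those comparisons 22.5, 31.2 and 23.8% of all genes were called (11.1, 15.5 and 11.9% higher, 11.4, 15.8 and 11.9% lower). Scd1, the desaturase that makes oleate, was at 4805, 2272 and 4122 CPM in the cold, against 13746, 17674 and 14139.8 CPM, and fell by 2.01 ± 0.25 (adjusted p = 0.0018). The 10 other controls held more still, 24642 to 45209 CPM. Its relative Scd2 was at 123, 134 and 178 CPM, against 20.9, 40.7 and 32.9 CPM (2.21 ± 0.24, adjusted p = 0.00079), but the other controls held 60.8 to 937 CPM, so that its direction depended on the control used. Against the isotype libraries Scd2 was lower at 4 degrees (log2 fold change -2.19, adjusted p = 0.0025). Acss2, which activates acetate, fell by 1.36 ± 0.25. Fasn, fatty acid synthase, ran from 2575 to 8229 CPM in the cold and 5121 to 9739.9 CPM in the PBS controls (adjusted p = 0.77), below the 10 other controls (8577 to 27559 CPM) in every cold library. In cholesterol synthesis 4 of 22 genes rose and 1 fell (median 0.43), and 2 rose without PBS replicate 3. Against D3, D4 and isotype controls 1, 4 and 0 were higher and 9, 4 and 13 lower, with medians of -0.72, 0.16 and -0.95. Fdft1, squalene synthase, fell by 2.56 ± 0.20 to 16.8, 15.1 and 21.4 CPM, against 114, 116 and 86.03 CPM in the controls, whereas Hmgcs1 rose by 0.57 ± 0.13 and Fdps by 1.24 ± 0.30, and both were lower at 4 degrees with isotype controls. Calls ended for Plin1 without any 1 library but PBS 3 (adjusted p up to 0.11), Plin4 without cold 1, PBS 1 or PBS 3 (adjusted p up to 0.072), Acss2 without cold 3 (adjusted p = 0.051) and Hmgcs1 without any 1 library but cold 2 and PBS 3 (adjusted p up to 0.095). With 1 library left out, calls were lost for Fdps without any 1 library but PBS 2 (adjusted p up to 0.12).

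Most called enzymes of fuel breakdown in the mitochondrion were lower. In the breakdown of branched-chain amino acids, 11 of 22 genes fell and 1 rose, with a median of -0.53. Of all genes tested 3.80% fell and 4.86% rose. Aldh6a1, which acts in valine breakdown, was at 420.0, 405 and 350.2 CPM in the cold libraries, against 1021, 1099 and 1172 CPM in the PBS controls, and fell by 1.48 ± 0.13 (adjusted p = 0.00028). Bckdha, the E1 alpha subunit of the dehydrogenase that commits these amino acids to oxidation, was at 60.2, 55.8 and 65.7 CPM, against 175, 181 and 163 CPM, and fell by 1.51 ± 0.14 (adjusted p = 0.00033). Both lay below all 13 controls. Bckdk, the kinase that inactivates that dehydrogenase, fell by 0.80 ± 0.14, Mmut by 0.68 ± 0.13 and Hibadh by 0.93 ± 0.15, the last with the opposite sign against isotype controls. The member that rose was Dbt, the E2 subunit, at 305, 309 and 294 CPM, against 199.6, 201 and 222 CPM (0.55 ± 0.12, adjusted p = 0.021), so that subunits of 1 complex moved in opposite directions. Without PBS replicate 3 the counts were 10 lower and 1 higher. Against D3, D4 and isotype controls, 4, 2 and 3 of the 22 genes were higher and 11, 12 and 8 lower. Of all genes 11.1, 15.5 and 11.9% were higher and 11.4, 15.8 and 11.9% lower in those comparisons. Calls were lost for Dbt without any 1 library but PBS 3 (adjusted p up to 0.079).

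In the TCA cycle 7 of 20 genes fell and 0 rose (median -0.37), beside 3.80% lower and 4.86% higher of all genes tested. Idh2 was at 252, 271 and 252 CPM in the cold, against 519, 537 and 537 CPM, and fell by 1.03 ± 0.12 (adjusted p = 0.00098). Pcx, pyruvate carboxylase, fell by 0.92 ± 0.12, Idh3g by 0.95 ± 0.13 and Sdha, a subunit of succinate dehydrogenase, by 0.85 ± 0.13. These 4 genes were below all 13 controls. Without PBS replicate 3 there were 5 lower genes and 1 higher. In fatty acid oxidation 7 of 28 fell and 0 rose (median -0.28), and 5 fell without PBS replicate 3. Among them were Acaa2 at 2785, 2978 and 2782 CPM, against 4456, 4722 and 4933 CPM (-0.72, adjusted p = 0.0044), Eci1 (-0.81) and Acadl (-0.59). Cpt1b, the carnitine transferase of the outer membrane, was at 24.8 to 29.4 CPM in the cold and 35.6 to 40.2 CPM in the controls (adjusted p = 0.13). Acyl-CoA thioesterases went the other way, with 3 of 12 higher and 0 lower (median 0.58), and 2 higher without PBS replicate 3. Acot2, the mitochondrial member, was at 255, 249 and 261 CPM, against 130.4, 111 and 91.4 CPM (1.21 ± 0.15, adjusted p = 0.0014). Acot5 was at 8.75, 5.95 and 10.05 CPM, against 0.168, 0 and 0 CPM, and had no count in the 10 other controls. These are genes of a cluster of near copies, so the share of reads assigned to each is uncertain. The test was no longer passed by Acadl without any 1 library but cold 3 and PBS 3 (adjusted p up to 0.095).

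**Figure D4:**
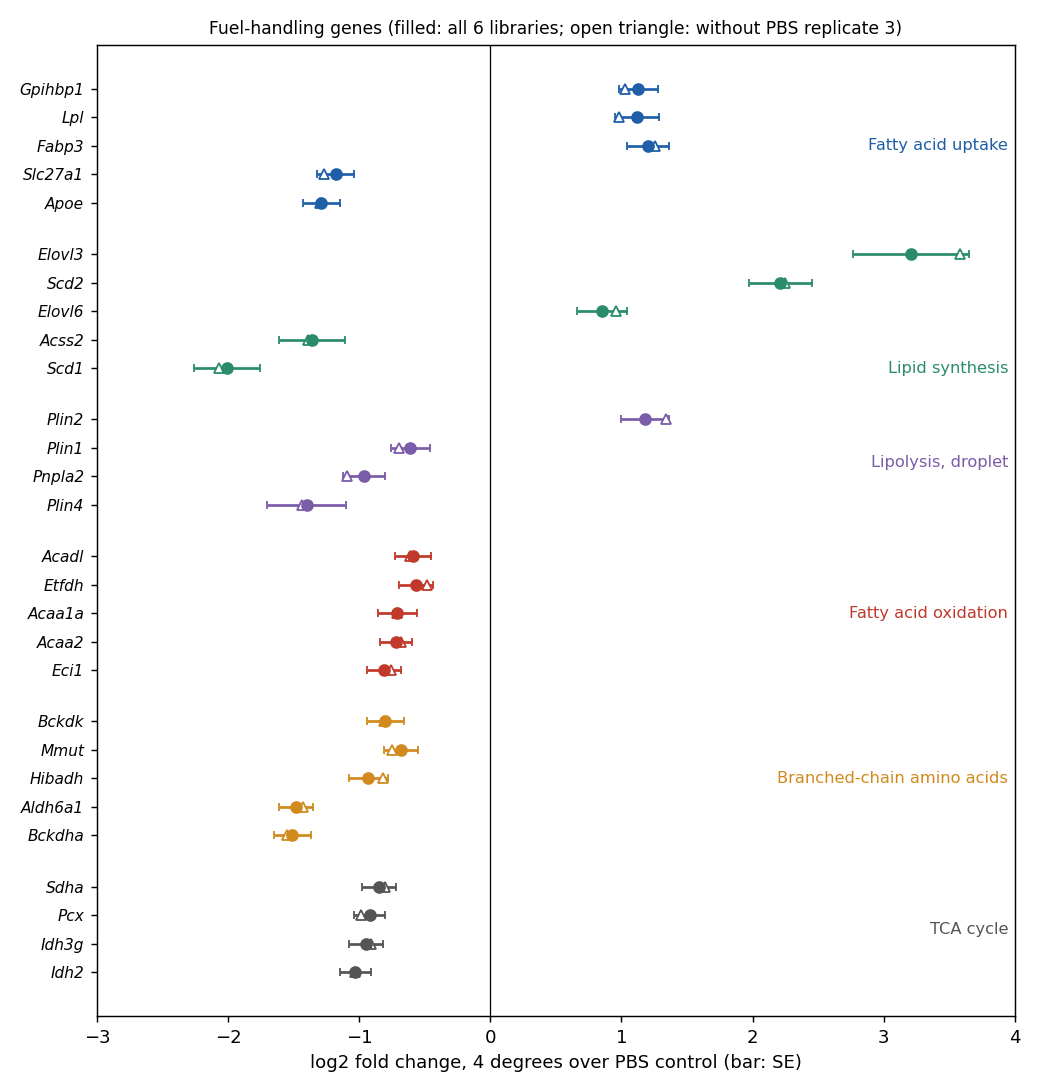
The log2 fold change at 4 degrees over PBS controls (horizontal axis, bar: SE) of named genes of 6 groups of fuel handling, with all 6 libraries (filled) and without PBS replicate 3 (open triangle). The genes shown for fatty acid oxidation, branched-chain amino acids and the TCA cycle all lie below 0, and those of fatty acid uptake and lipid synthesis lie on both sides.

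Called genes of the respiratory chain went both ways. In complex I, 4 of 37 genes rose and 4 fell (median 0.08). In complexes II to V 2 of 43 rose and 5 fell (median 0.02). Of all genes tested 4.86% rose and 3.80% fell, and the share that rose in complexes II to V was near the first. Ndufb7 rose by 0.75 ± 0.13 and Ndufa5 by 0.58 ± 0.14, while Ndufs1 fell by 0.63 ± 0.14 and Ndufa10 by 0.51 ± 0.13. Without PBS replicate 3, complex I had 6 higher and 2 lower genes and complexes II to V had 2 higher and 4 lower. Against D3, D4 and isotype controls, 8, 11 and 13 genes of complexes II to V were higher and 11, 13 and 4 lower. Of all genes 11.1, 15.5 and 11.9% were higher and 11.4, 15.8 and 11.9% lower in those comparisons. The 13 mRNAs encoded in the mitochondrion itself summed to 94583 to 136503 CPM in the cold and 113091 to 152014 CPM in the PBS controls. Of these, mt-Nd6 rose by 1.46 ± 0.21 (1617, 948 and 1140.3 CPM in the cold, 384, 557 and 416 CPM in the controls), and 5 fell, or 3 without PBS replicate 3, with mt-Co1 lower by 0.79 ± 0.16 on the log2 scale and mt-Cytb by 0.76 ± 0.20 (adjusted p = 0.036, and 0.083 without PBS replicate 3). The others were mt-Co2 (-0.95) and mt-Co3 (-0.88), which were higher at 4 degrees with each other control group, and mt-Nd3 (-3.47). Nuclear copies of mitochondrial DNA share reads with several of these genes, so the split of their counts is uncertain. In glucose and glycogen use, 3 of 32 genes rose and 2 fell (median 0.34), and 4 rose without PBS replicate 3. Against D3, D4 and isotype controls 0, 8 and 2 were higher and 12, 6 and 8 lower, with medians of -0.43, -0.03 and -0.41. Hk1, a hexokinase, rose by 1.63 ± 0.38 and Pfkl by 0.98 ± 0.18, the second with the opposite sign against D3 or isotype controls, while the muscle-type phosphofructokinase Pfkm fell by 1.11 ± 0.21 and the glycogen phosphorylase Pygb by 1.63 ± 0.25. Calls ended for Ndufa5 without any 1 library but PBS 3 (adjusted p up to 0.11), Ndufs1 without cold 2, cold 3 or PBS 2 (adjusted p up to 0.076), Ndufa10 without any 1 library but PBS 1 (adjusted p up to 0.11) and mt-Co1 without PBS 2 (adjusted p = 0.055). With 1 library left out, calls were lost for mt-Cytb without any 1 library but cold 1 and PBS 1 (adjusted p up to 0.13), mt-Co2 without cold 2 or PBS 2 (adjusted p up to 0.065), mt-Co3 without any 1 of the 6 libraries (adjusted p up to 0.12) and Hk1 without any 1 library but PBS 2 and PBS 3 (adjusted p up to 0.087).

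Of 19 endothelial genes 8 rose, 0 fell and 11 did not pass the test, with a median of 0.93. Pecam1, an adhesion protein of endothelial cells, was at 184, 188 and 224 CPM in the cold, against 91.9, 88.7 and 59.4 CPM (1.32 ± 0.18, adjusted p = 0.002). Eng was at 238, 309.7 and 399 CPM, against 106, 109 and 50.3 CPM (1.85 ± 0.30), and Emcn at 57.1, 66.8 and 79.5 CPM, against 25.8, 23.8 and 18.1 CPM (1.60 ± 0.21). Kdr, the main receptor for VEGF, rose by 1.12 ± 0.20 but was lower than in isotype controls, and Egfl7, Esam, Tie1 and Gpihbp1 were the others. Without PBS replicate 3, which was the lowest of the PBS controls, 7 were called and the median was 0.58. Against D3, D4 and isotype controls 6, 11 and 6 were higher and 1, 1 and 3 lower. Of all genes 11.1, 15.5 and 11.9% were higher and 11.4, 15.8 and 11.9% lower in those comparisons. The 4 defining endothelial markers summed to 388 to 492 CPM in the cold libraries and 132 to 215 CPM in the PBS controls. In the isotype controls they summed to 394 to 460.1 CPM, within the cold range, and in the 7 D3 and D4 libraries to 217 to 282 CPM. In whole tissue, more cells of a type and more RNA per cell cannot be told apart, and the part of endothelial RNA in other differences, such as that of Gpihbp1, was not tested. In the matrix list 4 of 28 genes rose and 1 fell. Eln, elastin, was at 20.5, 35.4 and 38.4 CPM, against 6.73, 4.42 and 1.48 CPM (2.94 ± 0.47), and Col4a2, a collagen of basement membranes, at 283, 327 and 536 CPM, against 194, 150.4 and 84.8 CPM (1.43 ± 0.33). Calls were lost for Egfl7 without cold 3 (adjusted p = 0.0503), Esam without cold 3 (adjusted p = 0.06), Tie1 without any 1 library but PBS 1 (adjusted p up to 0.19) and Col4a2 without cold 2, cold 3 or PBS 2 (adjusted p up to 0.088).

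**Figure D5:**
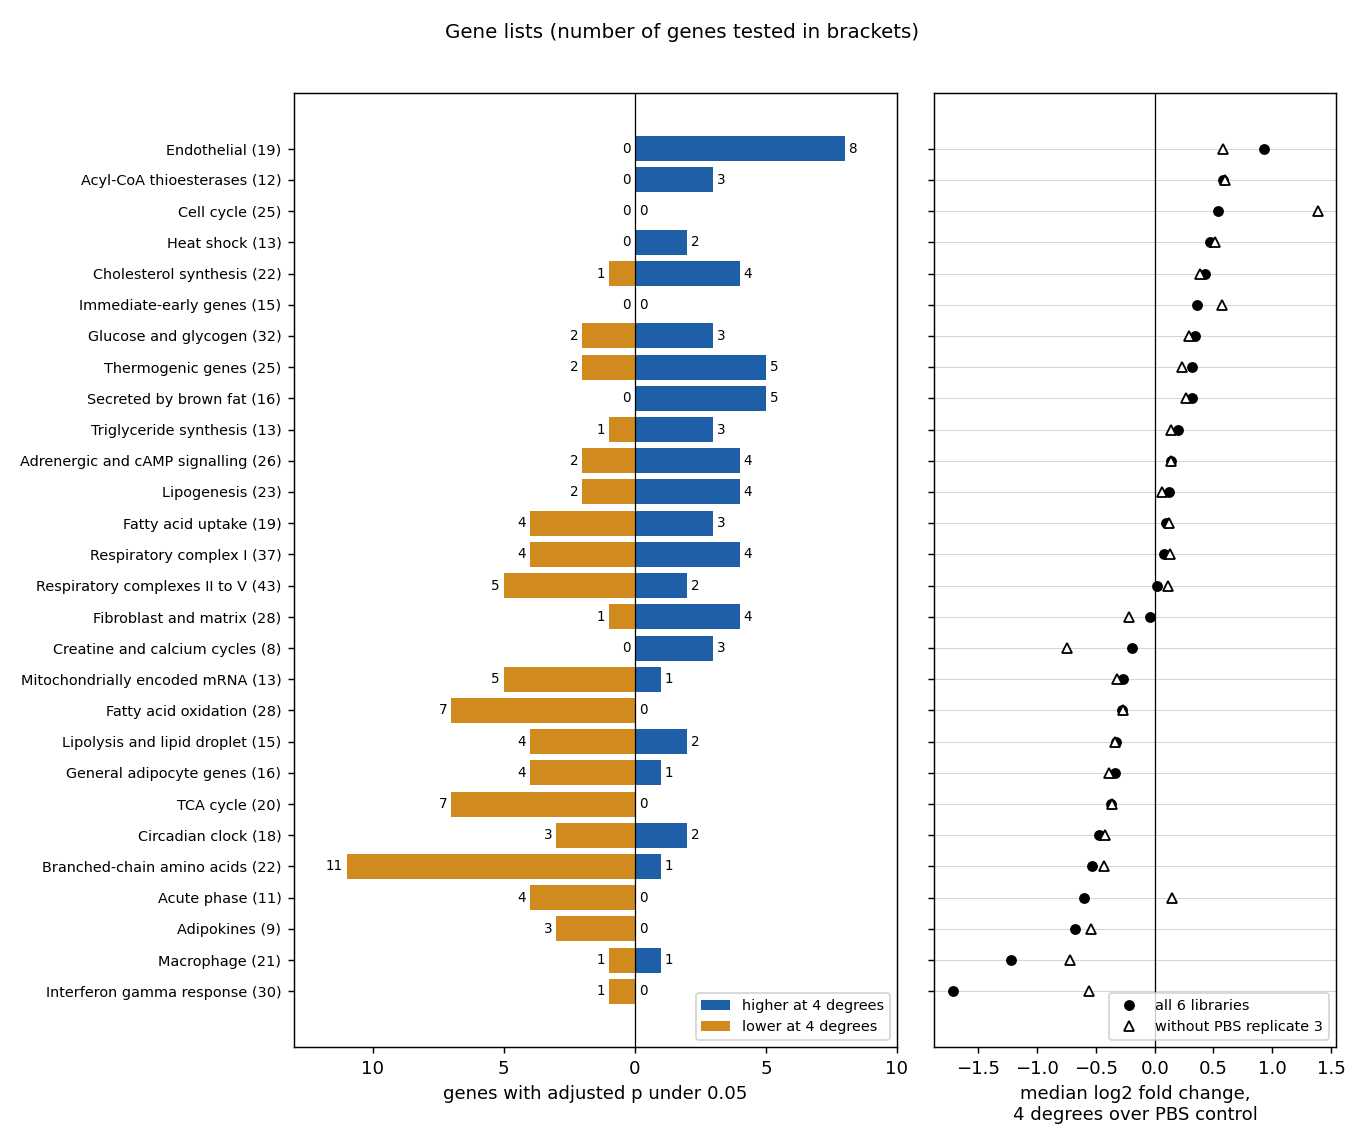
For 28 gene lists, the number of genes higher (right) and lower (left) at 4 degrees at an adjusted p under 0.05 beside the median log2 fold change of the genes tested, with all 6 libraries (filled) and without PBS replicate 3 (open triangle). Branched-chain amino acid genes have the most lower genes (11) and endothelial genes the most higher genes (8), and of the lists drawn, the medians of interferon gamma, cell cycle, acute phase and creatine genes shift most without that library. The other 13 lists, T and NK cell and skeletal muscle genes among them, are not drawn.

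The medians of immune lists depended on PBS replicate 3. Of 30 genes of the interferon gamma response 0 rose and 1 fell (Tapbp, which loads peptides on MHC class I, by 1.55 ± 0.31), yet the median was -1.72, and it was -0.56 without that library, with 4 lower. Of 6 T and NK cell genes none was called and the median was -2.24, against -0.33 without it. Macrophage markers summed to 95.7 to 112 CPM in the cold and to 216, 111 and 287 CPM in PBS replicates 1, 2 and 3, and Adgre1, which encodes F4/80, fell by 1.90 ± 0.39 (adjusted p = 0.013), with the opposite sign against isotype controls. Of 21 genes on the macrophage list, 1 other was called, Lpl, which adipocytes also express. Macrophage markers summed to 35.2 to 147 CPM in the 10 other controls, a range that holds the cold libraries. Against D3, D4 and isotype controls, 2, 3 and 9 of 17, 19 and 17 macrophage genes were higher and 0 lower. Their medians were 0.40, 0.08 and 1.32. T and NK cell genes had 0, 1 and 1 higher and 0 lower of 3, 4 and 3, with medians of 0.71, 1.19 and 1.80. Foxp3, the Treg factor, had no count in the cold libraries or in PBS replicates 1 and 2, and 7 counts in PBS replicate 3. In the acute phase list 4 of 11 genes fell and 0 rose, and 1 rose without PBS replicate 3. Steap4 was at 50.5, 98.95 and 51.4 CPM, against 236, 233 and 243 CPM (-1.82, adjusted p = 0.0017), and Lrg1 at 82.3, 119 and 66.3 CPM, against 276, 226 and 228 CPM (-1.44), and both lay below all 13 controls. The metallothioneins Mt1 and Mt2 fell by 0.83 ± 0.12 and 1.57 ± 0.24, but neither lay outside the range of all 13 controls. Acute phase genes had 1, 1 and 2 higher and 2, 2 and 2 lower of 11, 9 and 9 against D3, D4 and isotype controls. Lists of B cells, skeletal muscle, red cells and the cell cycle held no called gene against the PBS controls. Against D3, D4 and isotype controls, 10 of 22, 12 of 22 and 12 of 19 cell cycle genes were higher and 0 lower. Their medians were 1.75, 1.81 and 1.94. Skeletal muscle genes had 0 higher and 6, 0 and 1 lower of 13, 12 and 7. Of all genes 11.1, 15.5 and 11.9% were higher and 11.4, 15.8 and 11.9% lower in those comparisons. Without PBS replicate 3 the cell cycle genes Ccna2 (2.87, adjusted p = 0.023), Top2a (3.21, 0.017) and Tyms (1.21, 0.032) were called higher, and Top2a was at 7.62, 11.6 and 16.03 CPM in the cold and 2.19, 0.211 and 14.7 CPM in the PBS controls. Skeletal muscle markers summed to 5.74 to 64.9 CPM in the cold libraries and 1.71 to 355 CPM in the PBS controls. The test was no longer passed by Tapbp without cold 1, cold 2 or cold 3 (adjusted p up to 0.076) and Adgre1 without cold 1 or cold 2 (adjusted p up to 0.056).

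Of 18 clock genes 2 rose and 3 fell, and 3 rose and 4 fell without PBS replicate 3. Of all genes tested 4.86% rose and 3.80% fell. Arntl, which encodes the clock activator BMAL1, was at 21.1, 12.4 and 18.3 CPM at 4 degrees, against 1.68, 3.58 and 0.798 CPM (3.18 ± 0.50, adjusted p = 0.0039), and Cry1 rose by 1.46 ± 0.34. Dbp, a clock output factor, was at 1.93, 3.12 and 2.15 CPM, against 13.1, 6.95 and 15.04 CPM, and fell by 2.27 ± 0.43, with Tef lower by 0.99 and Per3 by 0.85 on the log2 scale. These directions turned with other controls, those of Arntl and Cry1 with D3 and isotype, Tef with D3, D4 and isotype, Per3 with D4 and isotype, and Dbp with isotype. Against D3, D4 and isotype controls 0, 2 and 5 clock genes were higher and 4, 3 and 3 lower. Of all genes 11.1, 15.5 and 11.9% were higher and 11.4, 15.8 and 11.9% lower in those comparisons. The 10 other controls held 9.01 to 29.02 CPM of Arntl and 0.679 to 7.21 CPM of Dbp, and no gene of this list with an adjusted p under 0.05 lay outside the range of all 13 controls. It was thus the PBS controls that stood apart from the rest in Arntl. The part of the time of day of sampling in other differences was not tested. Calls ended for Cry1 without cold 1, cold 2 or PBS 1 (adjusted p up to 0.088), Tef without cold 1, cold 3 or PBS 2 (adjusted p up to 0.071) and Per3 without any 1 of the 6 libraries (adjusted p up to 0.094).

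By size of change, the higher genes were led by transcripts close to undetected in controls. Bdh1 (chromosome 16, 31422280 to 31458901), the mitochondrial enzyme that interconverts ketone bodies, was at 29.4, 37.7 and 26.3 CPM at 4 degrees and had no count in the PBS controls. With 865 counts over the cold libraries and a floor of 3 counts over the PBS group, it was at least 204-fold higher (adjusted p = 0.00016). The 10 other controls held 0 to 1.36 CPM. Cpne5, a copine that binds membrane lipids in the presence of calcium, was at 32.9, 32.7 and 45.4 CPM, against 0.842, 0.632 and 0 CPM (6.39 ± 0.57, adjusted p = 0.00028), and Arhgef37 at 27.7, 24.8 and 17.6 CPM, against 0.337, 1.69 and 0.684 CPM (4.77 ± 0.48). Npr3, the clearance receptor for natriuretic peptides, was at 39.7, 93.2 and 50.9 CPM, against 6.23, 4.21 and 8.55 CPM (3.25 ± 0.36, adjusted p = 0.00079). These 4 genes lay above all 13 controls. With isotype controls Cpne5 was not called (adjusted p = 0.081), and isotype replicate 1 held 8.15 CPM. Gmpr, GMP reductase, was at 1921, 1271 and 3269 CPM, against 307, 388 and 414 CPM (2.55 ± 0.33, adjusted p = 0.0035), with an isotype library within the cold range at 1374 CPM. Gchfr, a regulator of tetrahydrobiopterin synthesis, rose by 3.20 ± 0.45. E2f2 rose by 2.73 ± 0.30 against the PBS controls, but the isotype libraries held 30.04, 32.1 and 16.7 CPM, beside 22.3, 23.03 and 31.3 CPM in the cold libraries.

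The lower genes were led by Acsm3 (chromosome 7, 119760923 to 119787513), an acyl-CoA synthetase for medium-chain fatty acids, at 5.23, 12.4 and 11.4 CPM in the cold, against 92.4, 105 and 132 CPM (-3.50 ± 0.30, adjusted p = 0.00026). Pon1, a paraoxonase carried on HDL, was at 7.39, 10.1 and 11 CPM, against 81.3, 74.8 and 82.3 CPM, and fell by 3.06 ± 0.21 (adjusted p = 8.1e-05). Svep1, an extracellular matrix protein, fell by 2.73 ± 0.44, Apol6 fell by 3.33 ± 0.63, B3galt2 by 2.43 ± 0.45, Dram1 by 2.39 ± 0.30 and Rasd1 by 2.27 ± 0.33. All of these were below all 13 controls. Dennd2d fell by 2.67 ± 0.66 (adjusted p = 0.037), which became 0.067 without PBS replicate 3. Cyp2e1, a cytochrome P450, was at 38.9, 108 and 79.9 CPM, against 484, 288 and 433 CPM, and fell by 2.41 ± 0.36, while the 10 other controls spanned 28.2 to 267 CPM and the D3, D4 and isotype groups as controls each gave no call (adjusted p of 0.98, 0.51 and 0.77). Reads from an overlap of exons on opposite strands cannot be told apart in these counts. Of 189 genes named by rule or added, 57 share exon bases with a gene on the opposite strand. Among them are Bmp8b, Elovl3, Bdh1, Cpne5, Npr3, Gmpr, Acsm3, Apol6, Svep1, Dennd2d, B3galt2, Fdft1, Edn1, Atp2a2, Adcy3, Acss2, Fabp3, Aldh6a1, Bckdha, Eln, Eng, Arntl, Dbp, Dio2 and mt-Nd6. With 1 library left out, calls were lost for Svep1 without cold 3 (adjusted p = 0.054), Apol6 without cold 1, cold 2 or cold 3 (adjusted p up to 0.11), B3galt2 without cold 3 (adjusted p = 0.051) and Dennd2d without any 1 library but cold 2 (adjusted p up to 0.13).

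Controls of the same tissue also differed among themselves. The isotype libraries differ from the PBS controls in strain, toxin and antibody as well as experiment. Against the same PBS controls, 370 genes were higher and 292 lower in the D3 libraries (5.71% of 11591), 414 higher and 381 lower in the D4 libraries (6.71% of 11846), and 783 higher and 700 lower in the isotype libraries (13% of 11419). More genes were thus called between isotype and PBS controls than between cold and PBS libraries, though the count depended on single libraries. It was 933, 506 and 480 without isotype replicates 1, 2 and 3, it was 154, 186 and 212 for D3 without D3 replicates 1, 2 and 3, and 315, 448 and 249 for D4 without D4 replicates 2, 3 and 4. Scaled to total counts alone, the split was 233 higher and 502 lower for D3, and 273 higher and 575 lower for D4. These comparisons share the PBS libraries. Cfd was also lower in isotype than in PBS controls, by 1.76 on the log2 scale (isotype over PBS -1.76, adjusted p = 0.0020), and Adipoq likewise (-0.93, adjusted p = 0.0014), whereas Ckb (0.00, adjusted p = 1), Ucp1 (0.06, adjusted p = 0.91) and Elovl3 (0.78, adjusted p = 0.54) did not pass the test. With the D3, D4 and isotype libraries as controls in turn, the cold libraries gave 2724, 3864 and 2828 called genes. The log2 fold change of Ckb was 3.66, 3.75 and 3.64 there, that of Ucp1 0.85, 1.61 and 0.91, and that of Cfd -1.69, -1.70 and -0.57, all with an adjusted p under 0.05.

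Several lists kept the side of their called genes against these controls and others did not. With D3, D4 and isotype controls in turn, 11.1, 15.5 and 11.9% of all genes were higher and 11.4, 15.8 and 11.9% lower. Of 20 TCA cycle genes 1, 1 and 0 were higher and 13, 12 and 11 lower. In fatty acid oxidation 1, 6 and 4 of 28 were higher and 10, 9 and 9 lower. Thioesterases had 6, 7 and 7 higher and 0, 0 and 1 lower of 12, 11 and 12 tested. Adipokines had 0, 0 and 1 higher and 5, 4 and 4 lower of 10, 9 and 9. Thermogenic genes had 7, 12 and 6 higher and 4, 4 and 3 lower of 25. Against D4 and isotype controls the lower thermogenic counts were near the share of all genes. The secreted factors had 3, 4 and 3 higher and 1, 2 and 1 lower of 17, 15 and 16. In complex I 10, 14 and 19 of 37 were higher and 7, 10 and 2 lower. In the matrix list 9, 7 and 12 of 28, 28 and 27 were higher and 0, 2 and 2 lower.

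Set beside mice given CL, the cold libraries held more Ckb and Bmp8b and less Ppargc1a, while Ucp1 was not called. This contrast holds temperature, toxin, CL and experiment together. In it 1822 genes were higher and 2112 lower at 4 degrees (32.2% of 12206, 14.9% higher and 17.3% lower). Ucp1 was at 16295, 15459 and 15032 CPM in the cold and 16979.8, 12768 and 13402 CPM after CL, a log2 difference of 0.16 ± 0.15 (adjusted p = 0.45). Lpl was at 8429.5, 6598 and 8334 CPM after CL (0.29 ± 0.16, adjusted p = 0.2). Ckb was at 706, 1272 and 972 CPM in the cold and 102, 69.1 and 113 CPM after CL (3.43 ± 0.24, adjusted p = 2.1e-06), and Bdh1 had no count after CL. Bmp8b was at 11.6, 30.3 and 13.4 CPM in the cold and 0, 0 and 1.30 CPM after CL (4.95 ± 0.79, adjusted p = 0.00075). Ppargc1a went the other way, with 137, 105 and 191 CPM at 4 degrees and 2343, 1441 and 2266 CPM after CL, and in the cold it fell by 3.76 ± 0.25 relative to CL (adjusted p = 1.5e-06). Gmpr was also lower in the cold, at 1921, 1271 and 3269 CPM, against 4821, 6806 and 3568 CPM after CL (adjusted p = 0.043). Cfd and Adipoq were lower at 4 degrees than after CL, by 1.44 ± 0.17 and 0.84 ± 0.14 on the log2 scale.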

How the data were processed

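Whole brown fat entered with 2 ng of RNA per library, and libraries of polyadenylated RNA were made by Smart-seq2 with Nextera XT, per the labels. The deposited values are counts per gene, made by the authors with STAR 2.7.3a on mm10 and featureCounts, per the submitters' processing notes. No source used here names the annotation release, the strand setting or how reads with several matches were counted. PCR copies are not separate molecules, so counts carry more error than counting error.

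Cold and PBS libraries were fitted on their own with edgeR 4.0.16 in R 4.3.3 (filterByExpr, TMM, robust quasi-likelihood F test, Benjamini-Hochberg over all genes tested, threshold 0.05), with standard errors taken as the absolute log2 fold change divided by the root of F. D3, D4 and isotype controls against PBS controls, and cold against CL, were fitted the same way. CPM shown were scaled by TMM over 19 brown fat libraries, with totals from 3007241 to 9620920 counts. A gene with no count was given a floor of 3 counts over its group. No replicate pair was a near copy (chi-square over degrees of freedom 7.14 to 36.2 for genes of 20 counts or more). The fits were tested on simulated counts, where false calls exceeded the share the threshold sets and some true changes were missed.

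Members and the 41 gene lists were chosen with earlier results of these data known. Named genes are Ckb, Bmp8b, Cfd, Adipoq and Ucp1, at most 12 genes each way by size of change among called genes of at least 20 CPM whose groups do not overlap (predicted and ribosomal genes left out), up to 5 called members per list or its 2 most abundant, and the 3 leading genes each way of the other comparisons. The text gives a part of these, and results for some genes of the lists are not reported here. Slc6a8, Gatm, Cpt1b, Cd36, Fasn, Cox7a1, Cox8b, Dio2, Dbt, Apoc1, Angptl4, Prkaca, Egfl7, Esam, Tie1, Fos, Jun, Egr1, Ccna2, Top2a, Bmp8a, Foxp3, mt-Co3 and 4 mitochondrial tRNA genes were added after their values were seen. Positions are from GENCODE M21 (188 of 189 named genes matched).

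DESeq2 1.42.0, RLE factors, total counts, no filter, a replicate block, other controls, all groups in 1 fit and each library left out in turn were the alternatives. The labels give no pairing of cold with PBS libraries by replicate number. Raw reads were not analysed here.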

Additional observations from a re-analysis of the deposited data

How the results depend on the processing

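For 137 named genes set against PBS controls, DESeq2 and RLE factors kept every direction and call, and no direction turned with total counts, no filter, the replicate block or 1 fit of all 6 groups, although 6, 2, 30 and 6 of these genes lost their call there. Main counts were 1068 called, 599 higher and 469 lower. DESeq2 called 1603 genes (738 lower), and 1412 without PBS replicate 3, an alternative chosen after seeing the data. Without a filter 1744 were called (947 and 797), with all 6 groups in 1 fit 1918 (940 and 978). Each library left out in turn gave 499 to 1046 called, 282 to 594 higher and 217 to 452 lower. With a replicate block 658 were called (378 higher, 280 lower). Same-numbered libraries did not deviate together (r of -0.19, -0.03 and -0.15), but with 3 libraries a group this cannot show whether the numbers pair samples. The cause of these shifts was not tested.

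The choice of control changed most. Cold against D3 gave 2724 called (1342 higher, 1382 lower), against D4 3864 (1911 and 1953), against isotype 2828 (1409 and 1419), against 13 pooled controls 2868 (1390 and 1478), and against 12 without PBS replicate 3, chosen after seeing the data, 3604 (1835 and 1769). With D3 as control the sign turned for Acot11 (-0.55), Arntl (-0.07), Cry1 (-0.18), Egr1 (-2.02), Elovl6 (0), Fdps (-0.04), Jun (-1.07), Pfkl (-0.18), Scd2 (-0.74), Tef (0.09), mt-Co2 (0.69), mt-Co3 (0.35), mt-Tv (-0.76), Hspb8 (-0.44), Bnip3 (0.06), Agpat2 (-0.05), Lpin1 (-0.50) and Gpd1 (-0.25). With D4 it turned for Egr1 (-1.08), Jun (-0.31), Per3 (0.28), Scd2 (-0.13), Tef (0.08), mt-Co2 (0.46) and mt-Co3 (0.47). With isotype it turned for Acot11 (-1), Adgre1 (0.49), Arntl (-0.58), Cry1 (-0.37), Cyp2e1 (0.34), Dbp (1.52), E2f2 (-0.02), Egr1 (-1.72), Elovl6 (-0.05), Fdps (-0.27), Hibadh (0.10), Hmgcs1 (-0.44), Jun (-0.45), Kdr (-0.82), Pde3b (0.13), Per3 (0.59), Pfkl (-0.27), Scd2 (-2.19), Slc6a8 (0.21), Tef (0.78), mt-Co2 (0.72), mt-Co3 (0.77), Hspb8 (-0.33), Bnip3 (0.19), Pink1 (0.14), Agpat2 (-0.11), Lpin1 (-0.45), Gpd1 (-0.25) and Xbp1 (0.13). With 13 pooled controls it turned for Acot11 (-0.16), Egr1 (-1.33), Jun (-0.39), Scd2 (-0.86), mt-Co2 (0.07), mt-Co3 (0.06) and Lpin1 (-0.10), and with 12 for Acot11 (-0.22), Egr1 (-1.35), Jun (-0.41), Per3 (0.02), Scd2 (-0.95), mt-Co2 (0.18), mt-Co3 (0.21) and Lpin1 (-0.14). With 1 library left out in turn Fasn ran from -0.71 to 0.05, turning without cold replicate 2 (0.04) or PBS replicate 2 (0.05).

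For the other comparisons with PBS controls, DESeq2 called 1230 genes for D3 (689 higher, 541 lower) and 1442 for D4 (753 and 689). Total counts gave 233 higher and 502 lower for D3 and 273 and 575 for D4. No filter gave 1539 (829 and 710) for D3, 1611 (855 and 756) for D4 and 2238 (1100 lower) for isotype. The replicate block gave 194 lower for D3 and 222 called (137 and 85) for D4. Leaving out 1 library gave 154 to 603 called (97 to 343 higher, 57 to 286 lower) for D3, 249 to 979 (134 to 515, 115 to 464) for D4 and 480 to 1365 (265 to 693, 186 to 679) for isotype. With 3 libraries a group, a gene that was not called may still differ.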

Other observations

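Mitochondrial tRNA transcripts, whose counts come from a library primed on poly(A), were described after their values were seen. Of 14 tested, 6 were higher at 4 degrees and 0 lower, with a median log2 fold change of 2.01, and 5 were higher without PBS replicate 3. The 22 annotated tRNA genes summed to 855, 467 and 509 CPM in the cold libraries, against 155, 173 and 108 CPM in the PBS controls. The cold libraries lay above every control, whose other 10 libraries held 169.8 to 372 CPM. mt-Tl1 was at 325, 182 and 273 CPM in the cold, against 58.2, 64.9 and 33.96 CPM in the PBS controls (2.33 ± 0.28, adjusted p = 0.0013), and mt-Tq at 165, 81.5 and 89.9 CPM, against 17.8, 16.6 and 20.4 CPM (2.62 ± 0.28). mt-Tf rose by 3.54 ± 0.40, mt-Te by 2.27 ± 0.46, mt-Tv by 2.03 ± 0.44 and mt-Tm by 1.37 ± 0.37. The sign of mt-Tv turned with D3 as control, at 16.3, 7.71 and 11.1 CPM in the cold, against 40.3, 8.66 and 11.2 CPM. mt-Tm, at 75.4, 36.4 and 43.1 CPM in the cold, overlapped with the D3 and D4 libraries. These held 50.7, 21.9 and 39.9 CPM and 43.4, 51.9, 29.1 and 39.0 CPM, and the isotype libraries 18.3, 21.1 and 16.2 CPM. mt-Tq shares exon bases with mt-Ti on the opposite strand. The cause was not tested. Calls were lost for mt-Te without cold 1 (adjusted p = 0.063), mt-Tv without cold 1, cold 3 or PBS 1 (adjusted p up to 0.076) and mt-Tm without any 1 library but cold 2 and PBS 1 (adjusted p up to 0.15).

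Genes of triglyceride synthesis moved with 3 higher and 1 lower of 13, or 2 and 1 without PBS replicate 3. Agpat2 was at 7248, 6666 and 6909 CPM in the cold, against 3127, 4778 and 3576 CPM (0.87 ± 0.16), Lpin1 rose by 0.79 ± 0.19 and Gpd1 by 0.77 ± 0.20, and Pck1, which supplies glycerol 3-phosphate, fell by 1.09 ± 0.16. None of the 4 genes lay outside the range of all 13 controls, and Agpat2, Lpin1 and Gpd1 were lower at 4 degrees with D3 or isotype controls. Among genes of mitochondrial turnover, Bnip3 was at 114, 133 and 136 CPM, against 278, 312 and 351 CPM, and fell by 1.29 ± 0.14, Pink1 fell by 0.96 ± 0.16 and the fission gene Fis1 rose by 0.67 ± 0.13, with the opposite sign for Bnip3 against D3 or isotype controls and for Pink1 against isotype controls. In the heat shock list 2 of 13 genes rose and 0 fell, or 5 and 0 without PBS replicate 3. Hspb8 rose by 0.95 ± 0.16 and Hsp90aa1 by 0.71 ± 0.16, the first with the opposite sign against D3 or isotype controls. Among mitochondrial carriers 3 of 21 rose and 1 fell, or 2 and 2 without that library. Slc25a35 was at 75.5, 104 and 84.3 CPM, against 179, 171 and 202 CPM (-1.06), below all 13 controls. In the unfolded protein list 2 of 22 fell and 0 rose, Xbp1 by 0.93 ± 0.19 (with the opposite sign against isotype controls) and Pdia6 by 0.70 ± 0.16, and without that library 1 other rose. Nnmt, an enzyme that methylates nicotinamide, was at 429, 688 and 725 CPM in the cold, against 147, 212 and 269 CPM, and above all 13 controls, whose other 10 libraries held 18.6 to 88.2 CPM (1.56 ± 0.25, adjusted p = 0.0044). The test was no longer passed by Lpin1 without any 1 library but cold 2 and PBS 3 (adjusted p up to 0.1), Gpd1 without any 1 library but PBS 2 (adjusted p up to 0.13), Fis1 without cold 3 (adjusted p = 0.053) and Hsp90aa1 without any 1 library but cold 2 and PBS 3 (adjusted p up to 0.075). Calls ended for Xbp1 without cold 1 or cold 3 (adjusted p up to 0.08) and Pdia6 without any 1 library but PBS 2 and PBS 3 (adjusted p up to 0.084).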
